A study of Homo sapiens with 4 samples.

Results

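The keratin genes of 2 human breast cancer cell lines were described from RNA-Seq. Keratin genes were taken as every row of the expression table whose symbol was KRT followed by a number and, at most, 1 of the letters A to C, which found 56 rows with 55 symbols among 57815 genes. All 56 rows were annotated on chromosomes 12 and 17. The cell lines were MDA-MB-231, a triple-negative breast cancer line, and LM2-4175, a line isolated from MDA-MB-231 that metastasizes to the lung. No treatment or edit is named for either line, both were grown in the same serum-containing medium, and the question of the study was how gene expression differs in the lung-metastatic cells. Each line stands for 1 derivation of cells in culture, with 2 libraries per line and 4 in all. The table gives 1 expression value per gene and line, in FPKM (fragments mapped to a gene, scaled to transcript length and to the mapped fragments of the library), with a lower and an upper bound. No value per library was examined, so no p-value and no SD could be given, and the values below compare the pooled libraries of each line.

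Keratins are the intermediate filament proteins of epithelial cells. A filament is built from pairs of 1 acidic type I keratin and 1 neutral to basic type II keratin, so both types are needed in the same cell. Simple epithelia, including the luminal cells of the breast, use KRT8 and KRT18 together with KRT7 and KRT19, while basal cells of stratified epithelia use KRT5 with KRT14 and KRT15, and hair-forming cells use a separate set of hair keratins. The type II genes and KRT18 lie together on chromosome 12, and the other type I genes on chromosome 17.

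The 4 simple epithelial keratins KRT8, KRT18, KRT7 and KRT19 all fell in LM2-4175, by 2.48-fold to 6.89-fold. KRT15, a keratin of basal cells, and KRT34, a hair keratin, rose from low levels. KRT81, another hair keratin, had a log2 change of 1.24 on the FPKM + 1 scale, but its bounds overlapped between the lines. Here a gene was called higher or lower where its mean over both lines was at least 0.5 FPKM, FPKM + 1 changed at least 1.5-fold and the bounds of the lines did not overlap. Of the 56 keratin rows 11 reached a mean of 0.5 FPKM, and of these 2 were called higher and 4 lower. Over all 13911 genes that reached the same mean, 649 (4.67%) were called higher and 641 (4.61%) lower. The median log2 change of FPKM + 1, LM2-4175 over MDA-MB-231, was -0.65 over the 11 keratins and -0.04 over all genes tested. In RNA from whole cultures, fewer cells of a type and less RNA per cell cannot be told apart.

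**Figure D1:**
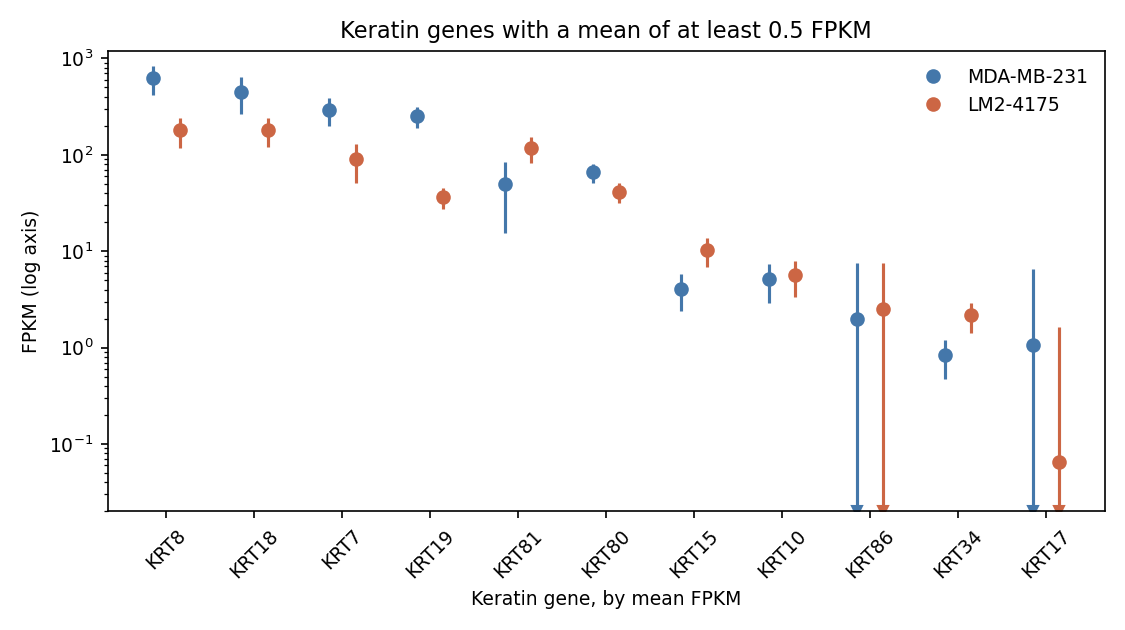
FPKM (log axis) of the 11 keratin genes with a mean of at least 0.5 FPKM, shown for MDA-MB-231 and LM2-4175, where dots are the values of the pooled libraries, lines run between the deposited bounds, and a triangle at the lower edge marks a lower bound of 0. The bounds of KRT8, KRT18, KRT7 and KRT19 lie lower in LM2-4175 and do not overlap, and those of KRT81 and KRT80 overlap.

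KRT8 (ENSG00000170421), the type II partner of KRT18 and 1 of the first keratins made in the embryo, had the highest level of all keratins in MDA-MB-231. Its gene spans chromosome 12, 53290971 to 53343738 of GRCh37, on the minus strand. KRT8 was at 625.7 FPKM (bounds 419.8 to 831.5) in MDA-MB-231 against 180.2 FPKM (116.8 to 243.6) in LM2-4175. It fell 3.47-fold, or between 1.72-fold and 7.12-fold when the ratio was taken at the extremes of the bounds, and its log2 change was -1.79. Among the 13911 genes tested, KRT8 went from rank 142 by FPKM in MDA-MB-231 to rank 463 in LM2-4175.

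KRT18 (ENSG00000111057), the type I keratin that pairs with KRT8, lies next to KRT8 on the opposite strand, at 53342655 to 53346690 of chromosome 12. KRT18 was at 448.5 FPKM (262 to 635) in MDA-MB-231 against 181.1 FPKM (119.8 to 242.5) in LM2-4175, a 2.48-fold decrease (1.08 to 5.30 from the extremes of the bounds). Its lower bound in MDA-MB-231 was 19.5 FPKM above its upper bound in LM2-4175, so the call rested on a small gap. By value, KRT8 was 1.40 times KRT18 in MDA-MB-231 and 0.995 times KRT18 in LM2-4175. No error can be given for these ratios. The bounds of the partners overlapped in both lines, in MDA-MB-231 at 419.8 to 831.5 FPKM for KRT8 and 262 to 635 FPKM for KRT18. The table lists 1 shared locus for both genes, and the first 1084 bases of each overlap on opposite strands. By exons, 17.1% of the bases of KRT18 were overlapped by KRT8. Use of strand in the counting was not stated, so reads there could not be assigned with certainty. KRT8 and KRT18 also have many processed pseudogenes. Of all stretches of 50 bases of the KRT18 transcript 54.3% were also found in transcripts of other genes in GENCODE 44. For stretches of 150 bases the share was 12.3%, and for KRT8 the shares were 39.2% and 0%. The top match of KRT18 was KRT8, with 23.9% of stretches of 50 bases. KRT8 was also the only match for stretches of 150 bases, so no pseudogene shared those. Both strands were searched, so matches of KRT18 to KRT8 can be the overlap on opposite strands given above. For each keratin 1 transcript was compared with all transcripts of other genes, so shares need not be equal both ways.

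KRT7 (ENSG00000135480), a type II keratin of ducts and glands at 52626304 to 52645970 of chromosome 12, plus strand, was at 294.6 FPKM (197.6 to 391.7) in MDA-MB-231 against 89.91 FPKM (50.61 to 129.2) in LM2-4175. It fell 3.28-fold (1.53 to 7.74) and its log2 change was -1.70. KRT7 and KRT8 kept nearly the same proportion, at 0.471 FPKM of KRT7 per FPKM of KRT8 in MDA-MB-231 against 0.499 in LM2-4175. Stretches of 50 bases shared with other genes made up 11.7% of the KRT7 transcript, and an antisense gene, KRT7-AS, overlaps its exons.

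KRT19 (ENSG00000171345), the smallest keratin and a marker of luminal cells in the breast, showed the largest decrease of the 4 keratins called lower. It lies at 39679869 to 39684560 of chromosome 17, minus strand, and no other gene overlaps its exons. KRT19 was at 250.3 FPKM (190.7 to 310) in MDA-MB-231 against 36.31 FPKM (27.55 to 45.07) in LM2-4175, a 6.89-fold decrease (4.23 to 11.25). Its place among the genes tested went from 344 to 2973. Per FPKM of KRT18 there were 0.558 FPKM of KRT19 in MDA-MB-231 against 0.200 FPKM in LM2-4175.

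The simple epithelial group held 6 keratins. The other two members were low, with KRT23 at 0.0197 FPKM in MDA-MB-231 against 0.0510 FPKM in LM2-4175 and KRT20, a keratin of the gut lining, listed at 0 in both lines. The summed FPKM of the group was 1619 in MDA-MB-231 against 487.6 in LM2-4175. High genes were compared with one another as well. Among the 986 genes with a mean of at least 100 FPKM, 28 (2.84%) were called higher and 52 (5.27%) lower. Ordered from the most negative log2 change, KRT19 was number 4 of these 986 genes, KRT8 number 7, KRT7 number 9 and KRT18 number 16. KRT19 and KRT7 were in this set only through MDA-MB-231, being at 36.31 FPKM and 89.91 FPKM in LM2-4175. The mean treats the lines alike, so a set chosen by it can take in genes that were high in either line alone. The places of the keratins in this set are descriptive.

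**Figure D2:**
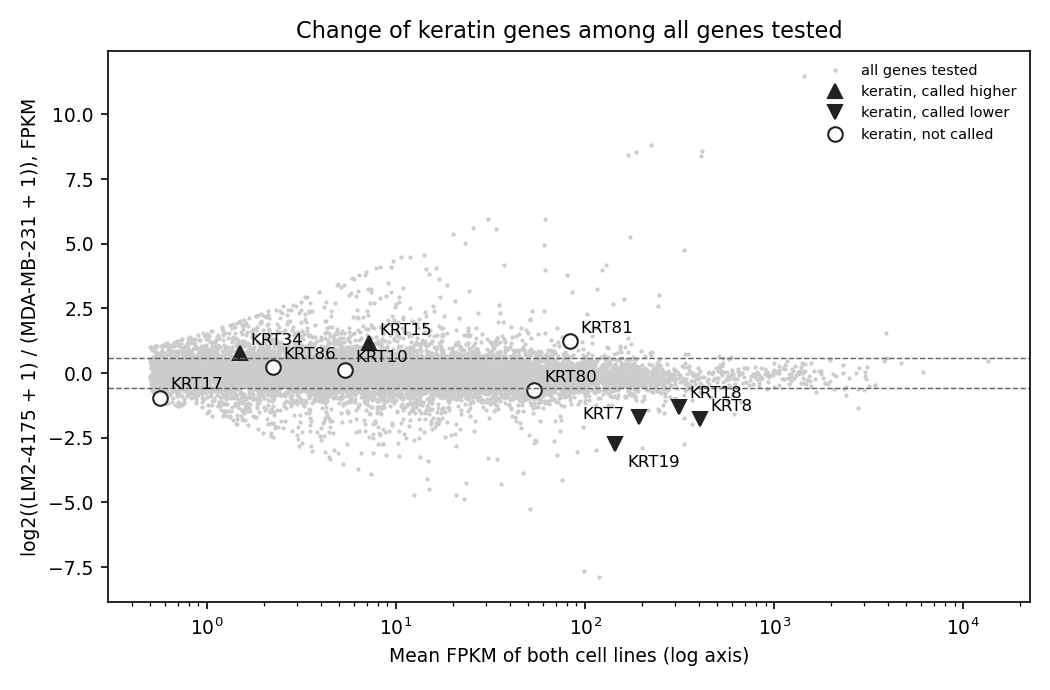
Mean FPKM of both lines (log axis) against log2((LM2-4175 + 1) / (MDA-MB-231 + 1)) in FPKM for the 13911 genes tested (grey) and the 11 keratins (black, triangles for called genes and open circles for genes not called), with dashed lines at 1.5-fold. KRT19, KRT8, KRT7 and KRT18 lie below most genes of their level, at -2.75, -1.79, -1.70 and -1.30, and KRT81 lies at 1.24.

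KRT15 (ENSG00000171346) is a type I keratin of basal keratinocytes and of the stem cells of the hair follicle. It was at 4.084 FPKM (2.405 to 5.764) in MDA-MB-231 against 10.24 FPKM (6.812 to 13.68) in LM2-4175, and rose 2.51-fold (1.18 to 5.69). KRT15 is the nearest neighbour of KRT19 on chromosome 17, on the same strand at 39669997 to 39678781 with 1087 bases between them. The neighbours moved in opposite directions, so that KRT19 stood at 61.3 times the FPKM of KRT15 in MDA-MB-231 but at only 3.55 times in LM2-4175. KRT15 was the only 1 of the 3 basal keratins to reach the minimum mean. KRT14 was at 0.136 FPKM in MDA-MB-231 against 0.00631 FPKM in LM2-4175, and KRT5, its type II partner in basal cells, was at 0.0372 FPKM in MDA-MB-231 but listed at 0 in LM2-4175. KRT5 and KRT14 were thus far below KRT15 in both lines.

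KRT81 (ENSG00000205426) is a type II keratin of the hair cortex, the body of the hair shaft. It was at 49.41 FPKM (15.45 to 83.37) in MDA-MB-231 against 117.8 FPKM (81.89 to 153.7) in LM2-4175, a ratio of 2.38 (0.982 to 9.95 from the extremes of the bounds) and a log2 change of 1.24. Its bounds overlapped by 1.48 FPKM, and it was not called. It was called higher when the lines were scaled to TPM or to the same median ratio, so its call depended on the scaling. By value, KRT7 exceeded KRT81 in MDA-MB-231, at 5.96 FPKM per FPKM of KRT81, and not in LM2-4175, at 0.763 FPKM per FPKM. The bounds of KRT7 and KRT81 were apart in MDA-MB-231. They overlapped in LM2-4175, where those of KRT7 were 50.61 to 129.2 FPKM, so the order of these genes there is not settled.

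KRT81 and KRT86, hair cortex keratins that lie in opposite directions on chromosome 12, share long identical stretches, so some reads could be exchanged. KRT86 (ENSG00000170442) was at 1.985 FPKM (0 to 7.521) in MDA-MB-231 against 2.502 FPKM (0 to 7.561) in LM2-4175, with lower bounds of 0 in both lines. Over the 8 coding exons of equal length 1243 of 1279 bases (97.2%) were identical, with 75% in coding exon 8. Coding exon 9 differed in length, at 236 bases in KRT81 and 179 bases in KRT86, and was left out. The longest identical run of coding bases was 309 bases long. It lies in exon 1 of KRT81 (chr12:52684881-52685189, minus strand) and in exon 3 of KRT86 (chr12:52695761-52696069, plus strand) of GRCh37, and was looked for after the values had been seen. Its first 150 bases, as long as 1 read of the libraries and the same in both genes, are shown because a read from them cannot be assigned to either gene by its sequence.
KRT81 and KRT86: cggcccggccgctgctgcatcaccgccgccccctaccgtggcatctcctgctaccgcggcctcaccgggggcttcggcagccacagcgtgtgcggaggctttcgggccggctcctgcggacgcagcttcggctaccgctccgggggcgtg
Of all stretches of 150 bases of the KRT81 transcript 25.6% were also found in KRT86. Of those of the KRT86 transcript 21.7% were found in KRT81, and 25.4% in any other gene.

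KRT34 (ENSG00000131737), a type I keratin of the hair cortex on chromosome 17, was at 0.8387 FPKM (0.4752 to 1.202) in MDA-MB-231 against 2.157 FPKM (1.403 to 2.911) in LM2-4175. It rose, with a ratio of 2.57 (1.17 to 6.13), and its log2 change on the FPKM + 1 scale was 0.78, which understates the ratio of a gene this low. Of its stretches of 50 bases 12.2% were shared with other genes, and none of its stretches of 150 bases were. The hair shaft group held 17 keratins, of which 8 were above 0 in at least 1 line and 9 were listed at 0 in both. KRT81, KRT86 and KRT34 reached the minimum mean, 1 of them was called higher and all 3 had positive log2 changes. The sum of the group was 52.76 FPKM in MDA-MB-231 against 123.1 FPKM in LM2-4175, nearly all of it KRT81.

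KRT80 (ENSG00000167767), a type II keratin found in many epithelia during differentiation, was at 65.55 FPKM (50.62 to 80.48) in MDA-MB-231 against 41.29 FPKM (31.9 to 50.68) in LM2-4175. Its log2 change was -0.65 and its bounds overlapped by only 0.0584 FPKM, so it was not called. KRT10 (ENSG00000186395), a type I keratin of the upper layers of the epidermis, was at 5.105 FPKM (2.876 to 7.334) in MDA-MB-231 against 5.6 FPKM (3.355 to 7.844) in LM2-4175. The bounds of KRT10 overlapped over most of their width, and its log2 change was 0.11. The suprabasal group, which held both, had 14 members and a sum of 70.73 FPKM in MDA-MB-231 against 47.66 FPKM in LM2-4175, and none of its members was called.

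KRT17 (ENSG00000128422), a type I keratin that is induced in wounded skin and marks basal-like breast cancers, was at 1.06 FPKM (0 to 6.523) in MDA-MB-231 against 0.06508 FPKM (0 to 1.641) in LM2-4175. It passed the minimum mean only through its value in MDA-MB-231, with a mean of 0.563 FPKM, and its bounds overlapped. Without a pseudocount KRT17 was 16.3-fold lower in LM2-4175 by value, a larger fold than that of KRT19. With lower bounds of 0 in both lines no limits can be given for this fold, so it cannot be ranked against KRT19. Of the stretches of 50 bases of KRT17 18.3% were shared with other genes, and of those of 150 bases 0%. The other 4 keratins of stress and migration were low, with KRT16 at 0.0678 FPKM in MDA-MB-231 against 0.153 FPKM in LM2-4175 and KRT6A, KRT6B and KRT6C listed at 0 in both lines. No inner root sheath or companion layer keratin reached the minimum. Of these 9 genes 8 were listed at 0 in both lines, and the highest value was 0.0169 FPKM.

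The 45 keratin rows below the minimum mean held 26 that were listed at 0 in both lines, 10 above 0 in both lines, 3 above 0 in MDA-MB-231 alone and 6 above 0 in LM2-4175 alone. A value of 0 in this table can be a failed estimate, since EEF1A1, a translation factor that every cell needs, has a value of 0 with the status HIDATA, whereas the status was OK for all 56 keratin rows. KRT79, a type II keratin of the hair canal and sebaceous duct, was the 1 low member whose bounds did not overlap, at 0.0234 FPKM (0 to 0.0929) in MDA-MB-231 against 0.528 FPKM (0.228 to 0.828) in LM2-4175. Its mean of 0.276 FPKM was the highest below the minimum, and its log2 change on the FPKM + 1 scale was 0.58. KRT33B, a hair keratin beside KRT34, was at 0.229 FPKM in MDA-MB-231 against 0.322 FPKM in LM2-4175. KRT39, also a hair keratin, was at 0.252 FPKM in MDA-MB-231 against 0.192 FPKM in LM2-4175. The keratin-like gene KRT222 had 2 rows, of which the higher had 0.271 FPKM (0 to 1.67) in LM2-4175 and was listed at 0 in MDA-MB-231.

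Summed over each type, type I keratins were at 710.7 FPKM in MDA-MB-231 against 236.4 FPKM in LM2-4175, 3.01-fold lower, and type II keratins at 1037 FPKM and 432.5 FPKM, 2.40-fold lower. Type II per type I was 1.46 in MDA-MB-231 against 1.83 in LM2-4175. These sums carry no error, because bounds of single genes cannot be added. All keratins together held 0.276% of the summed FPKM of all genes in MDA-MB-231 against 0.112% in LM2-4175.

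Within the type II sum, KRT8 held 60.3% in MDA-MB-231 against 41.7% in LM2-4175, and KRT7 held 28.4% and 20.8%. KRT81 held 4.76% of the type II sum in MDA-MB-231 against 27.2% in LM2-4175, and KRT80 held 6.32% and 9.55%. Within the type I sum, KRT18 held 63.1% in MDA-MB-231 against 76.6% in LM2-4175, KRT19 held 35.2% and 15.4%, and KRT15 held 0.575% and 4.33%. By value, the makeup differed in both types in LM2-4175. The share of KRT81 among type II keratins was larger, and that of KRT19 among type I keratins was smaller. KRT81 was not called, as its bounds overlapped between the lines, and no error can be given for the shares. KRT8, KRT18, KRT7 and KRT19 together made up 92.6% of all keratin FPKM in MDA-MB-231 against 72.9% in LM2-4175.

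**Figure D3:**
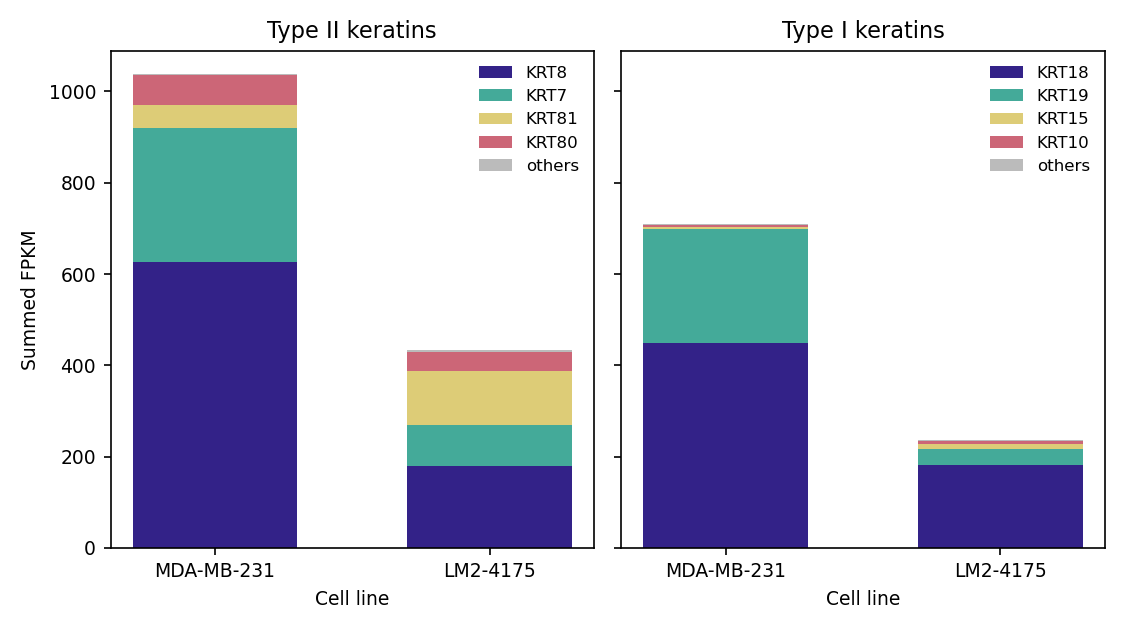
Summed FPKM (bars start at 0) of type II and type I keratins for MDA-MB-231 and LM2-4175, stacked by gene, with no error bars because each line has 1 value per gene. Both sums are lower in LM2-4175, 432.5 against 1037 FPKM for type II and 236.4 against 710.7 FPKM for type I, and KRT81 takes 27.2% of type II there.

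The 27 keratin rows on chromosome 12 span 52562780 to 53346690 of GRCh37, and the 29 rows on chromosome 17 span 38783608 to 39781094. On chromosome 12 the keratins that reached the minimum mean lay at the ends of the cluster. KRT80, KRT7, KRT86 and KRT81 lay at 1 end and KRT8 and KRT18 at the other. Between KRT81 and KRT8 lay 21 keratin genes, none of which reached the minimum mean. The value was 0 for 16 of these genes in MDA-MB-231 and for 17 in LM2-4175, and the highest was KRT79 in LM2-4175. KRT7 and KRT81 lie 33726 bases apart at the same end and had log2 changes of -1.70 and 1.24. KRT81 was not called, and KRT7, KRT81 and KRT86 were listed under 1 shared locus, as were KRT8 and KRT18.

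**Figure D4:**
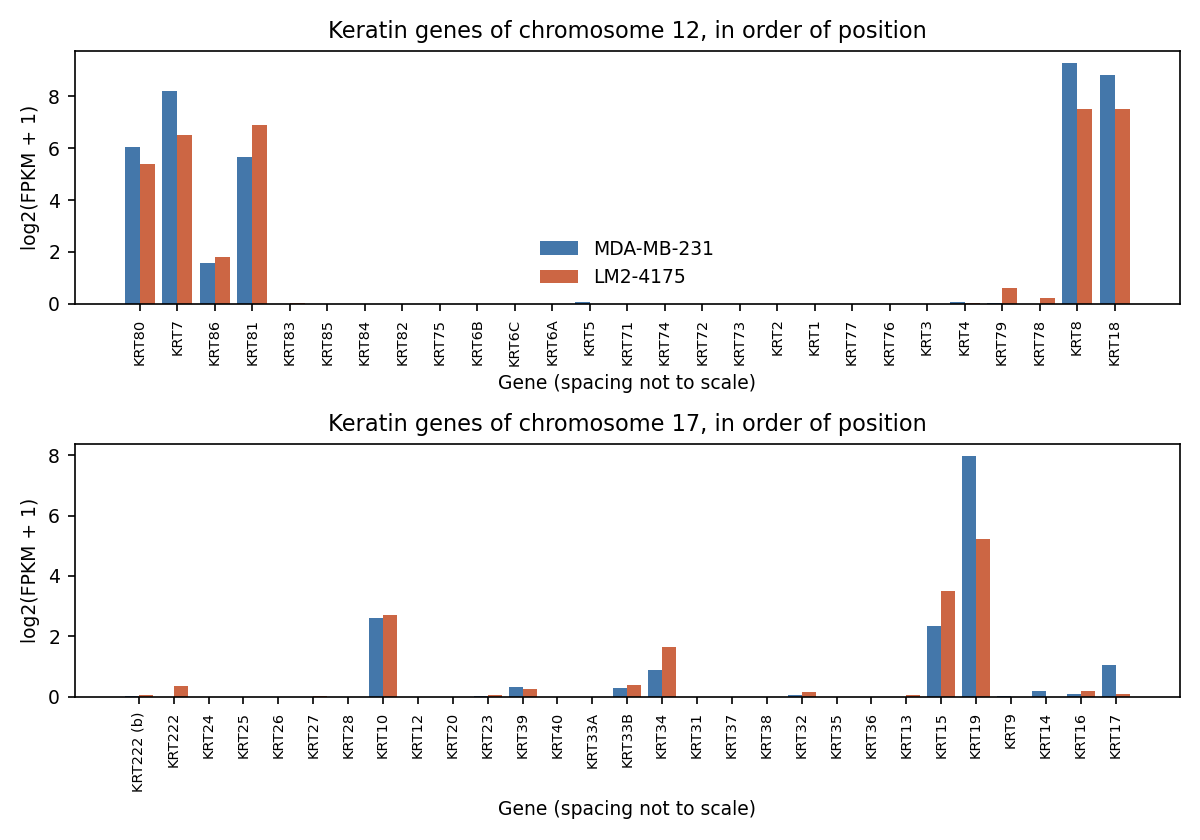
log2(FPKM + 1) of the keratin rows on chromosome 12 and chromosome 17 in order of position, for MDA-MB-231 and LM2-4175, with "KRT222 (b)" for the second row of that symbol. On chromosome 12 the genes that reached a mean of 0.5 FPKM sit at both ends with 21 low genes between KRT81 and KRT8, and on chromosome 17 KRT15 and KRT19 are neighbours with opposite changes.

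The start-site windows in RefSeq (assembly GRCh38.p14, 250 bases before to 50 after a gene's start) were read for the keratins, and 34 symbols had a window, among them KRT8, KRT10 and KRT34 of the 11 keratins tested. The windows of KRT8, which fell, and KRT34, which rose, are shown to set side by side the starts of called keratins that moved in opposite directions. KRT8 is chr12:52926420-52926719, minus strand, and KRT34 is chr17:41382257-41382556, minus strand. Capitals mark the TATA box sequence TATAAA.
KRT8: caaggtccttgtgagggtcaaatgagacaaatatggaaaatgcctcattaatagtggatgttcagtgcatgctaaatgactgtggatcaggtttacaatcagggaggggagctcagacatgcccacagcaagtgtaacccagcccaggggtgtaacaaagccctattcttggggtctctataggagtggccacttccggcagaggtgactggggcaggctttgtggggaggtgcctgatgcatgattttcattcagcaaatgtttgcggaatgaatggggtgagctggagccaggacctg
KRT34: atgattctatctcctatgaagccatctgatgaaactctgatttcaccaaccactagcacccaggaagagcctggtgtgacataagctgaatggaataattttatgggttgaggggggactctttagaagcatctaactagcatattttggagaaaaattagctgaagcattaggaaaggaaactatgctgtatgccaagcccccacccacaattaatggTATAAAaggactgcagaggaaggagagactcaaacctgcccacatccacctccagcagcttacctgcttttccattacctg
These motifs were searched on both strands: TATAAA, the AP-1 motif TGANTCA, the Sp1 motif GGGCGG and the AP-2 motif GCCNNNGGC. Matches were allowed to overlap one another. TATAAA was found in KRT34, from 31 to 26 bases before the start, and in none of the 300 bases of KRT8. In KRT10, whose window was read after the values had been seen, TATAAA lay from 29 to 24 bases before the start. The other three motifs were in none of the 3 windows. Over all 35116 windows, TATAAA was found in 11.5%, TGANTCA in 7.71%, GGGCGG in 44.95% and GCCNNNGGC in 23.2%. The RefSeq start used for KRT8 lies 23391 bases inside the outer end of its gene, and that used for KRT34 lies 1510 bases inside. Neither window is thus at the outermost start. Use of these starts in the cell lines was not examined, so the windows need not be where most KRT8 or KRT34 RNA begins.

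Other genes that act with keratins were described by the same rule. Desmosomes anchor keratin filaments at cell junctions. Of 19 desmosome and keratin linker genes 13 were tested, 1 was called higher and 2 lower, and the median log2 change was -0.47. FAM83H, which organizes keratin filaments, fell from 2.349 FPKM (1.7 to 2.998) in MDA-MB-231 to 0.1205 FPKM (0.05705 to 0.184) in LM2-4175. EVPL, a plakin that links filaments to desmosomes, fell from 12.51 FPKM (7.353 to 17.67) to 4.38 FPKM (2.558 to 6.203). DSC2, a desmosomal cadherin, rose from 1.333 FPKM (0.9207 to 1.744) to 2.696 FPKM (1.95 to 3.442). The main linkers were not called. DSP, the plakin of every desmosome, was at 24.32 FPKM in MDA-MB-231 against 19.24 FPKM in LM2-4175, and PLEC at 82.68 FPKM and 57.88 FPKM.

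Of 15 intermediate filament genes outside the keratins 8 were tested and none was called, with a median log2 change of -0.24. VIM, the filament protein of mesenchymal cells, was at 1355 FPKM (961.1 to 1749) in MDA-MB-231 against 1768 FPKM (1243 to 2292) in LM2-4175. All keratins together were at 1.29 FPKM per FPKM of VIM in MDA-MB-231 against 0.379 in LM2-4175. The nuclear lamin LMNA was at 436.8 FPKM in MDA-MB-231 against 282.6 FPKM in LM2-4175, and its bounds overlapped.

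Of 19 transcription factors of epithelial cells 9 were tested and 1 was called. TFAP2C, an AP-2 factor of breast epithelium, rose from 3.367 FPKM (2.333 to 4.4) in MDA-MB-231 to 18.41 FPKM (13.99 to 22.83) in LM2-4175. ESRP2, an epithelial splicing factor, was at 2.377 FPKM and 0.4274 FPKM with overlapping bounds. TP63, the regulator of basal keratinocytes, was at 0.309 FPKM in MDA-MB-231 against 0.521 FPKM in LM2-4175. Of 14 genes of the cornified envelope and keratinocyte differentiation 4 were tested and 1 was called, SBSN, which rose from 0.09535 FPKM (0 to 0.2194) to 4.765 FPKM (3.025 to 6.504), while 6 were listed at 0 in both lines.

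Genes that mark luminal breast cells were read from outside the keratin family. Of 10 such genes 7 were tested, 3 were called lower and none higher, with a median log2 change of -1.16. AGR2, a secretory pathway protein of luminal cells, fell from 24.92 FPKM (16.87 to 32.97) in MDA-MB-231 to 1.71 FPKM (0.7909 to 2.629) in LM2-4175. EPCAM, an epithelial adhesion protein, fell from 12.26 FPKM (8.383 to 16.14) to 4.928 FPKM (3.128 to 6.728). TFF1, a secreted peptide of estrogen-responsive cells, fell from 2.375 FPKM to 0.2102 FPKM. The estrogen receptor gene ESR1 was at 0.0331 FPKM and 0.0186 FPKM and the progesterone receptor gene PGR at 0.0124 FPKM and 0.00438 FPKM, near 0 in both lines. The epithelial cadherin CDH1 was at 0.851 FPKM in MDA-MB-231 against 0.366 FPKM in LM2-4175, and it was not called. ERBB3, a growth factor receptor of luminal cells, was higher in LM2-4175 by value, at 2.053 FPKM (0 to 6.128) and 4.199 FPKM (0 to 9.808), with overlapping bounds. FOXA1, which opens chromatin for the estrogen receptor, stayed below the minimum mean, at 0.0871 FPKM and 0.440 FPKM.

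Markers of other cell types were read beside the keratins. Of 9 leukocyte markers 2 were tested and none was called. Their sum was 109 FPKM in MDA-MB-231 against 180.9 FPKM in LM2-4175, of which CD68, a lysosomal protein also made outside macrophages, was 107 and 178.9, while PTPRC was at 0.0767 FPKM and 0.0263 FPKM and CD3E was listed at 0 in both lines. Of 6 endothelial markers 1 was tested and called higher, KDR, at 0.971 FPKM in MDA-MB-231 against 2.48 FPKM in LM2-4175, and the sum was 1.104 FPKM and 2.682 FPKM. Of 6 fibroblast markers 3 were tested. COL1A1 was called higher, at 3.163 FPKM in MDA-MB-231 against 30.98 FPKM in LM2-4175, PDGFRB (9.444 and 1.912 FPKM) and LUM (1.337 and 0.1779 FPKM) were called lower, and DCN was at 0.137 FPKM and 0.0253 FPKM. The summed fibroblast markers were at 14.19 FPKM and 33.25 FPKM. The part of these genes in the keratin differences was not tested.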

How the data were processed

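RNA from 2 libraries each of MDA-MB-231 and LM2-4175 was sequenced as paired reads of 150 bases, aligned by the authors to hg19 with TopHat and quantified with Cufflinks on GENCODE 19. The deposited table holds the FPKM that the authors computed for each line, both libraries combined, with bounds whose level, like library scaling and strand use, is not given in the sources used here. It gives no counts. Depth is unknown from it, since among 3285 genes with values under 0.05 FPKM the commonest ratio of the lines covered only 1.55%, so whole reads could not be recovered. Precision was read from the bounds.

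Changes were log2 ratios of FPKM + 1, in Python 3.11.15, NumPy 2.4.6, pandas 2.3.3 and Matplotlib 3.10.9. Genes with a mean of at least 0.5 FPKM, status OK, were tested. Keratins above that mean, the 5 highest below it and, of each list, the called and up to 5 most changed genes could be named. Others, such as ESR1, PGR, TP63, DSP, DCN and low keratins, were chosen after their values were seen. For 1 of the 6 endothelial markers no value is reported here, and their sums leave it out. Members and lists were chosen with earlier results of these data known. Positions are from GENCODE 44 on GRCh37, and all 56 rows matched. Alternatives concerned the pseudocount, filter, scaling, fold and bounds.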

Additional observations from a re-analysis of the deposited data

How the results depend on the processing

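The calls of KRT8, KRT18, KRT7, KRT19 and KRT15 were the same under all alternatives tried. At a fold of at least 2, KRT34 lost its call and 1 keratin was called higher in place of 2. KRT81 was called higher under TPM scaling, scaling to the median ratio, the fold alone and a limit on standard errors. KRT80 was called lower under the fold alone and under standard errors, and KRT17 under the fold alone. Without both pseudocount and filter, an alternative chosen after seeing the data, KRT79 was called higher. The type sums kept their direction. Over all genes, the fold alone called 1434 higher and 1640 lower, standard errors 1054 and 1264, and a fold of at least 2 called 450 and 403. TPM scaling multiplied the ratio of LM2-4175 to MDA-MB-231 by 1.06 before the pseudocount was added. Without a pseudocount the log2 changes were 1.36 for KRT34, 1.33 for KRT15, 1.25 for KRT81, -2.79 for KRT19 and -4.03 for KRT17, so the order among these genes depends on it. No paired analysis was possible because the table has 1 combined value per line, and for the same reason no library could be left out. The table gives no depth, and keratins near 0 cannot be ordered.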

Other observations

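Relatives of the keratin genes were read after the values above had been seen. Of 141 rows of keratin pseudogenes 33 were above 0 and 1 reached a mean of 0.5 FPKM, KRT8P12, at 1.574 FPKM in MDA-MB-231 and 1.393 FPKM in LM2-4175, although KRT8 fell. All pseudogene rows together summed to 2.122 FPKM and 2.365 FPKM. Of 110 rows of keratin-associated proteins, which fill the space between filaments in hair, 17 were above 0 and 1 was tested. This was KRTAP2-3, inside the chromosome 17 cluster, which rose from 0.9666 FPKM (0.4279 to 1.505) in MDA-MB-231 to 8.128 FPKM (5.52 to 10.74) in LM2-4175.

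Protein-coding genes outside the keratin family, within 1 Mb of the ends of each cluster, were also read. On chromosome 12, 30 such genes were tested, none was called higher and 1 was called lower, IGFBP6, at 56.13 FPKM in MDA-MB-231 and 23.16 FPKM in LM2-4175, and the median log2 change was 0.09. On chromosome 17, 50 genes were tested with a median of 0.01. There 4 were called higher, LEPREL4, ATP6V0A1, CSF3 (1.15 FPKM in MDA-MB-231 and 831.1 FPKM in LM2-4175) and FKBP10 (0.4253 and 67.01 FPKM), and 2 were called lower, TNS4 (13.52 and 1.551 FPKM) and PTRF (229.8 and 130.1 FPKM). Over all 13911 genes tested, 4.67% were called higher and 4.61% lower. Whether the neighbours differ from these shares was not tested.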
